A study of Mus musculus with 6 samples.

Results

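The GDNF-RET genes examined here were the ligands Gdnf, Nrtn and Artn, the receptor Ret, the co-receptors Gfra1, Gfra2 and Gfra3, and the transcription factor Hand2. These 8 members were chosen by gene symbol among the 46603 genes counted in every library. They were measured by poly-A RNA-seq in enteric glial cells (EGCs) grown as neurospheres from the entire gut of E14.5 embryos (strain C57BL/6J) and then plated to confluence. Both groups shared this strain, tissue and culture, with EGF and FGF in the neurosphere medium and serum after plating. The LPS group of 3 libraries came from EGCs given 100 ng/ml lipopolysaccharide, the bacterial membrane component sensed by Toll-like receptor 4, for 12 h, and the 3 control libraries came from EGCs with no treatment. The comparison asks how an inflammatory stimulus changes EGC gene expression. The labels do not say that libraries of a group came from separate cultures, so each p-value measures the spread between these libraries.

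GDNF-family ligands are secreted dimers that do not bind the RET tyrosine kinase alone. They first bind a membrane-anchored GFRA co-receptor, and the complex then brings RET molecules together, which phosphorylate each other and recruit adaptor proteins. GDNF pairs best with GFRA1, neurturin (Nrtn) with GFRA2 and artemin (Artn) with GFRA3. In the embryonic gut, mesenchyme releases GDNF, and neural crest cells carrying RET and GFRA1 migrate, divide and form the enteric nervous system. HAND2 is a basic helix-loop-helix (bHLH) factor needed there for neuronal differentiation, and it is also present in gut mesenchyme.

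Library totals ran from 18775316 to 23664312 counts, and the members held between 25 and 5660 counts in any library. The LPS treatment was visible in Ccl2, Nfkbia, Cxcl10, Il6 and Saa3, whose summed level was 74.3 to 99.3 CPM (counts divided by the scaled library total) in control and 12733 to 17917 CPM in LPS libraries, with 5 of 5 genes higher. Of 9 glial markers, 8 exceeded a floor of 3 counts in every library, and their sum was 626 to 846 CPM in control and 655 to 689 CPM in LPS libraries, most of it Ngfr. The glial markers called, named after their values were seen, were S100b, which fell from 22.2 ± 2.20 to 5.92 ± 3.08 CPM (edgeR adjusted p = 0.0238), and Fabp7, which rose from 2.55 ± 0.26 to 6.27 ± 1.05 CPM (SD, n = 3, edgeR adjusted p = 0.0122). Whether S100b and the members that fell share a source was not tested. The 5 epithelial markers summed to 0.636 to 1.24 CPM, with 2 above the floor in every library and Cdx2 at 0 counts throughout. The cultures also carried mesenchymal markers at 15124 to 16295 CPM in sum, smooth muscle markers, neuronal markers and macrophage markers. The libraries numbered 3 stood apart in both groups. Macrophage markers summed to 4120, 5345 and 12705 CPM in control 1 to 3 and to 4153, 5397 and 20410 CPM in LPS 1 to 3, and neuronal markers summed to 797, 782 and 364 CPM and to 808, 854 and 447 CPM. In such bulk RNA, fewer cells of a type and less RNA per cell cannot be told apart.

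Across the members, the co-receptors changed in opposite directions while RET itself did not pass the test. Gfra1 and Gfra3 fell, Gfra2 rose, and the other 5 members, Gdnf, Nrtn, Artn, Ret and Hand2, were not called. The threshold for a call was an adjusted p under 0.05 in edgeR's quasi-likelihood test, with Benjamini-Hochberg adjustment over 15226 genes. All 8 members entered that test. The 3 members called stand beside 15.8% of all genes tested, of which 9.09% were higher and 6.71% lower. Libraries with the same number in both groups deviated together, so each fit was repeated with the number as a block. With this replicate block, 30.3% of all genes were called, 15.4% higher and 14.9% lower, and so were 6 members: Artn, Gfra2 and Hand2 higher, and Nrtn, Gfra1 and Gfra3 lower. The median log2 fold change was -0.05 over the members and -0.02 over all genes tested.

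**Figure D1:**
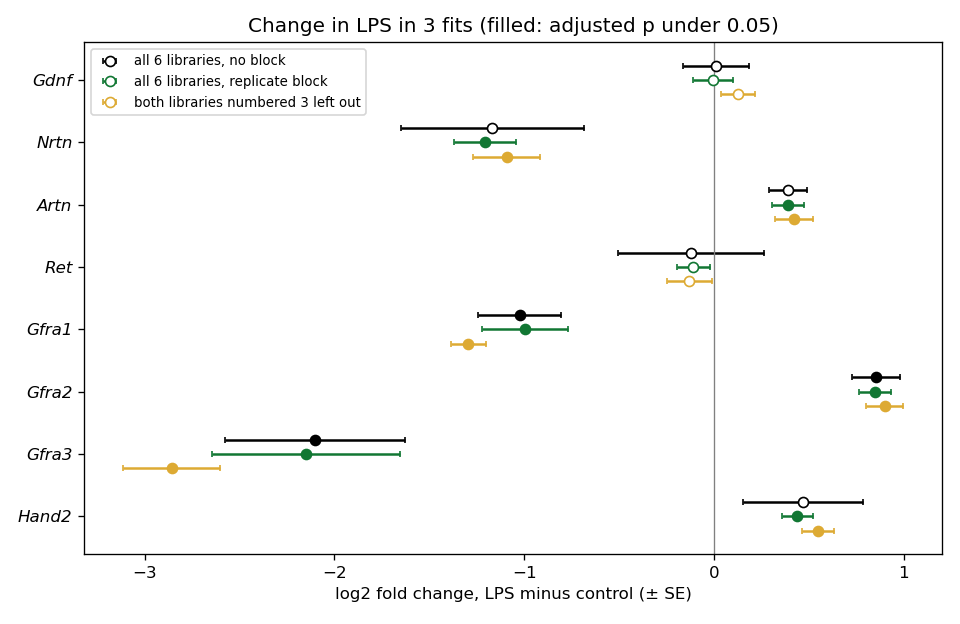
Log2 fold change of LPS over control (x axis) with its standard error for each of the 8 members (y axis), with filled points at an adjusted p under 0.05, from the fit on the groups alone, from the fit with the replicate number as a block, and with both libraries numbered 3 left out. Gfra3 and Gfra1 lie below 0 and Gfra2 above 0 in all 3 fits, whereas Nrtn, Artn and Hand2 pass the threshold in the other two fits only, and Gdnf and Ret lie near 0.

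Levels were compared between genes per kilobase of exon, in CPM per kb. In the control libraries, Hand2 at 46.6 ± 11.6 CPM per kb and Gfra1 at 35.3 ± 9.43 CPM per kb (SD, n = 3) were the most abundant members, at the 94.1 and 91.9 percentile of the tested genes with an exon length. Their ranges overlapped each other, but neither overlapped Ret, which followed at 8.48 ± 3.14 CPM per kb. Gfra3 at 7.19 ± 2.58, Artn at 6.83 ± 0.54 and Nrtn at 6.09 ± 2.30 CPM per kb did not differ from Ret beyond their spread. Gdnf at 4.68 ± 0.40 and Gfra2 at 4.21 ± 0.31 CPM per kb were lowest and overlapped. After LPS, Hand2 at 64.6 ± 21.9 and Gfra1 at 17.3 ± 2.06 CPM per kb still led. Gfra3 moved from rank 4 to rank 8 of the members, at 1.67 ± 0.95 CPM per kb, and Gfra2 from rank 8 to rank 5, at 7.61 ± 0.96 CPM per kb.

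The proximal promoters of the 3 ligand genes are shown as a description. None of these ligands was called in the fit on the groups alone, and no test compared them with each other. Each run is the 250 bases before the RefSeq transcription start site (GRCm38.p6), with matches to 4 motifs in capitals: the TATA box TATAAA, the GC box GGGCGG, the E-box CANNTG that bHLH factors such as HAND2 can bind, and the AP-1 site TGANTCA, all searched on both strands.
Gdnf (chr15:7809798-7810047, + strand): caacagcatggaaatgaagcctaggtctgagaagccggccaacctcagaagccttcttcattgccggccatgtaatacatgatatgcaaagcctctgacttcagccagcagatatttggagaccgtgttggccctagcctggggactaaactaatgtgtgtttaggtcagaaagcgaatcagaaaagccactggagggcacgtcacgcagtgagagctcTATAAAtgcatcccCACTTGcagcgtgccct
Nrtn (chr17:56757549-56757798, - strand): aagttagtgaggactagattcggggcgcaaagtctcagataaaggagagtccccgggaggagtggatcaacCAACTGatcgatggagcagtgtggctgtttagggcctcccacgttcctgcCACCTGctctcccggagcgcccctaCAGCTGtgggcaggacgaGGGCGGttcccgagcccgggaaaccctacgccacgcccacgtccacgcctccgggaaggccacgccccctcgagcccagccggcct
Artn (chr4:117929764-117930013, - strand): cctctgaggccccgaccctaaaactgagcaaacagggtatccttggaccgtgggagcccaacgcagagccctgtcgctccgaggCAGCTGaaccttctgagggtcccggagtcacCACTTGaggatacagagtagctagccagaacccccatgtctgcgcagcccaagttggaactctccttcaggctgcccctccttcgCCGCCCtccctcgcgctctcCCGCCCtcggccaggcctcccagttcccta
RefSeq gives Gdnf a pair of start sites, at 7810048 and 7813727, and the window shown is that of the first, which lies before the GENCODE gene start at 7810846. It held 1 TATA box, which starts 31 bases before the start site, and 1 E-box, whereas the window of the second held no TATA box and 1 E-box. The Nrtn promoter held 3 E-boxes and 1 GC box, and the Artn promoter 2 E-boxes and 2 GC boxes. None of the windows held the AP-1 letters. Among 32851 promoter windows of the same length, 12.4% held a TATA box, 32.7% a GC box, 66.2% an E-box and 6.75% an AP-1 site. These are matches of letters, and no binding was measured.

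Gdnf, the ligand of GFRA1 on chromosome 15 (chr15:7810846-7837575, + strand, GRCm38, as for every gene position here), was at 18.6, 17.4 and 15.7 CPM in control 1 to 3 and at 19.8, 18.8 and 13.4 CPM in LPS 1 to 3. The groups overlapped fully, and LPS 3 was the lowest library. Its log2 fold change was 0.01 (SE 0.17, edgeR adjusted p = 0.969), and the sign was not stable: it was negative in 8 alternative analyses.

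Nrtn (chr17:56751325-56757530, - strand), the ligand of GFRA2, was at 7.42, 7.75 and 3.51 CPM in control and at 3.21, 3.79 and 1.31 CPM in LPS libraries. Each LPS library was below the control library of the same number, but control 3 was below LPS 2, so the groups overlapped. Control libraries averaged 6.23 ± 2.35 CPM and LPS libraries 2.77 ± 1.30 CPM (SD, n = 3). The log2 fold change of -1.17 (SE 0.48) did not pass the test (edgeR adjusted p = 0.161). With the replicate block it was -1.20 (SE 0.16, edgeR adjusted p = 0.0110). Across all genes, 34.6% were lower in LPS in all 3 numbered pairs.

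Artn (chr4:117926162-117929763, - strand), the ligand of GFRA3, was at 17.9, 15.5 and 15.8 CPM in control and at 22.3, 21.9 and 20.4 CPM in LPS libraries. Every LPS library lay above every control library, as for 19.3% of all genes. The log2 fold change of 0.39 (SE 0.10) fell just short of the threshold (edgeR adjusted p = 0.0507) and passed it with the replicate block (edgeR adjusted p = 0.0295). It passed in 5 of 15 alternatives, with an edgeR or DESeq2 adjusted p from 0.00689 with DESeq2 to 0.201 with library size alone, and it did so without LPS 3 (edgeR adjusted p = 0.0439).

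**Figure D2:**
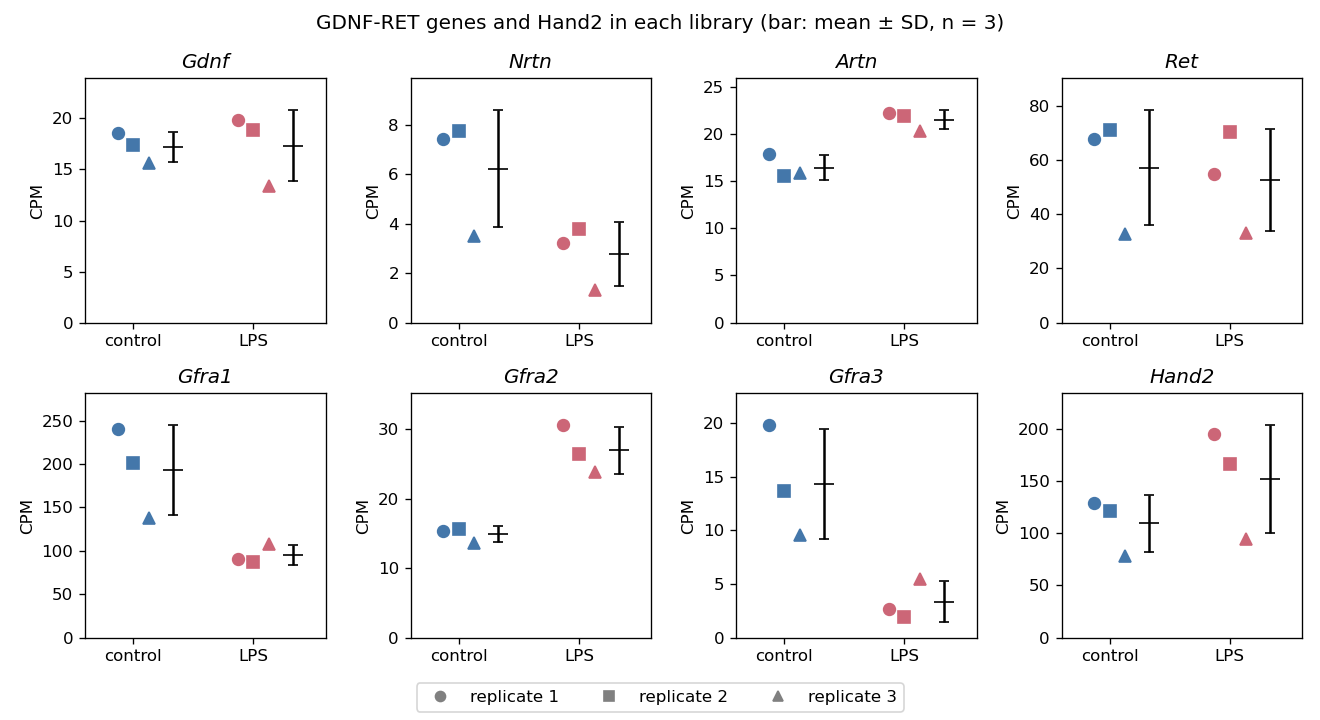
Level of each member in CPM (y axis, from 0) in the 3 control and 3 LPS libraries, with a symbol for each replicate number and, beside them, the mean and 1 SD (n = 3). The groups are separate for Gfra1, Gfra2, Gfra3 and Artn and overlap for Gdnf, Nrtn, Ret and Hand2, whose replicate 3 libraries are the lowest of their group.

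Ret (chr6:118151745-118197718, - strand), the receptor tyrosine kinase through which all 3 ligands signal, was at 67.8, 71.2 and 32.9 CPM in control and at 54.9, 70.4 and 33 CPM in LPS libraries. The libraries numbered 3 were the lowest of both groups and nearly equal to each other. The log2 fold change was -0.12 (SE 0.39, edgeR adjusted p = 0.865), and -0.11 (SE 0.09, edgeR adjusted p = 0.381) with the replicate block. It was positive without control 1, control 2 or LPS 3, at 0.03, 0.08 and 0.13.

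Gfra1 (chr19:58235604-58455909, - strand), which encodes the GDNF co-receptor, was at 239.8, 202 and 138 CPM in control and at 90.4, 86.7 and 108 CPM in LPS libraries. All LPS libraries were below all control libraries, and the gap was widest for the libraries numbered 1 and narrowest for those numbered 3. The mean fell 2.03-fold, from 193 ± 51.6 CPM to 95.0 ± 11.3 CPM (SD, n = 3). On the log2 scale the change was -1.02 (SE 0.22, edgeR adjusted p = 0.0310). Within numbered pairs the log2 difference was -1.41, -1.22 and -0.35. Without control 1, control 2, LPS 1 or LPS 2 the log2 fold change was -0.83, -0.98, -0.99 and -0.96 and was not called (edgeR adjusted p = 0.0897, 0.121, 0.105 and 0.120). In these fits 4.28%, 3.15%, 5.42% and 4.41% of all genes were called, against 15.8% with all 6 libraries. The fits without control 3 or without LPS 3 were as small, but 14.2% and 21.7% of all genes were called there. Gfra1 was called in both (log2 fold change -1.20 and -1.13, edgeR adjusted p = 0.00917 and 0.0318), as were Gfra2 and Gfra3.

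Gfra3 (chr18:34689898-34720387, - strand), the artemin co-receptor, showed the largest change among the members. It was at 19.8, 13.7 and 9.59 CPM in control and at 2.62, 1.89 and 5.5 CPM in LPS libraries, with no overlap. Control 3 was the lowest control library, whereas LPS 3 was the highest LPS library. The level fell 4.30-fold, a log2 fold change of -2.10 (SE 0.47, edgeR adjusted p = 0.0364), and 7.25-fold with both libraries numbered 3 left out. Without control 1, control 2, LPS 1 or LPS 2, the fits in which few genes were called, it was -1.79, -2.13, -1.95 and -1.82 and was not called (edgeR adjusted p = 0.116, 0.121, 0.120 and 0.111). Groups did not overlap for 38.7% of all genes, and every LPS library was below every control library, as for Gfra1 and Gfra3, in 19.4%.

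Gfra2 (chr14:70890120-70979838, + strand), the neurturin co-receptor, rose. It was at 15.4, 15.7 and 13.6 CPM in control and at 30.5, 26.4 and 23.8 CPM in LPS libraries, and the groups were well apart. The mean rose 1.81-fold from 14.9 ± 1.10 to 26.9 ± 3.39 CPM (SD, n = 3), or by 0.85 in log2 units (SE 0.13, edgeR adjusted p = 0.0117). The pairs differed by 0.99, 0.75 and 0.80 on the log2 scale. Without control 1, control 2 or LPS 2, where few of all genes were called, the log2 fold change was 0.89, 0.90 and 0.87 and was not called (edgeR adjusted p = 0.0539, 0.0600 and 0.0534). Of the 31-base stretches of its exons, 1.56% also occur in other genes' transcripts, against none for the other co-receptors on their own strand.

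Gfra1 accounted for most of the summed per-kb level of the 3 co-receptors in both groups. Its share was 75.4%, 76.6% and 74.4% in control and 62.4%, 65.3% and 67.5% in LPS libraries. The Gfra2 share was 9.36 ± 1.96% in control and 28.8 ± 5.07% in LPS libraries, and the Gfra3 share was 15.2 ± 1.66% and 6.10 ± 2.93% (SD, n = 3). In every control library Gfra3 exceeded Gfra2 per kb, and in every LPS library Gfra2 exceeded Gfra3. These shares are descriptions of the 3 members, with no test of their own. With the longest transcript as gene length, the Gfra1 share was 78.3% in control and 68.4% in LPS libraries.

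**Figure D3:**
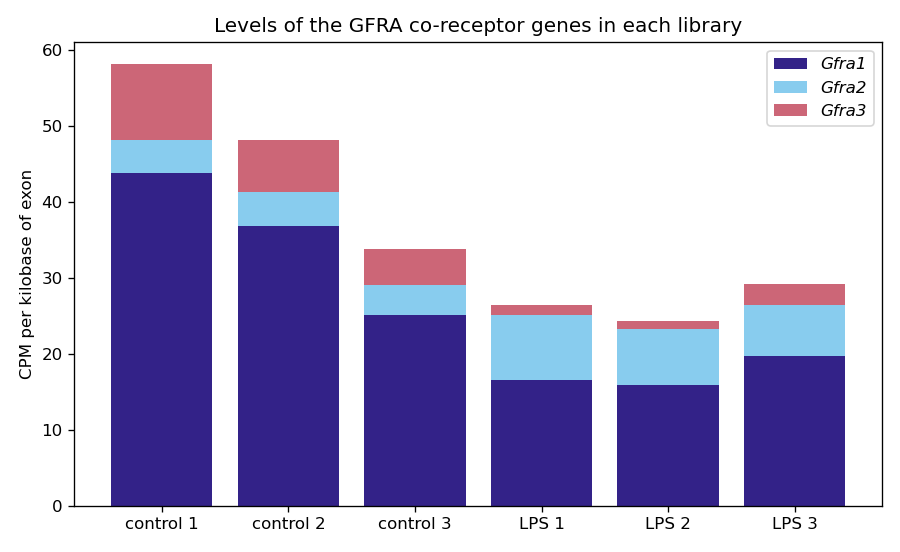
Stacked bars of the level per kilobase of exon (y axis, CPM per kb) of Gfra1, Gfra2 and Gfra3 in each of the 6 libraries (x axis). Gfra1 is the largest segment in every bar, Gfra3 exceeds Gfra2 in the control bars, and Gfra2 exceeds Gfra3 in the LPS bars.

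Set beside their ligands, the co-receptors gave these values. Gdnf was near 0 on the log2 scale while Gfra1 fell by 1.02. Nrtn had a log2 fold change of -1.17 while Gfra2 was at 0.85, and Artn was at 0.39 while Gfra3 was at -2.10. No test compared a ligand with its co-receptor.

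Hand2 (chr8:57320983-57324633, + strand) was at 129, 122 and 78.4 CPM in control and at 195, 166 and 94.6 CPM in LPS libraries. Each LPS library was above the control library of the same number, as for 31% of all genes, yet LPS 3 was below control 1 and control 2. The log2 fold change was 0.47 (SE 0.31, edgeR adjusted p = 0.358), and 0.44 (SE 0.08, edgeR adjusted p = 0.0217) with the replicate block. The antisense gene Hand2os1, listed in the counts as AV026068, covers 19.6% of the Hand2 exon bases. The kit keeps strand, but whether the counting used it is not stated, so reads there may belong to either gene. AV026068 held 460 to 849 counts a library and had a log2 fold change of 0.11 (edgeR adjusted p = 0.784).

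The members moved with the libraries numbered 3 to different degrees. Control 3 was at 0.473 of the mean of control 1 and 2 for Ret, 0.463 for Nrtn, 0.626 for Hand2 and 0.946 for Artn. LPS 3 was at 0.526, 0.374, 0.524 and 0.922 of the mean of LPS 1 and 2 for the same genes. For Gfra1 the ratios were 0.623 in control and 1.22 in LPS, and for Gfra3 they were 0.572 and 2.44, so these genes were low in control 3 and high in LPS 3. Neuronal markers were lower in both libraries numbered 3 for 9 of 9 genes with a mean of at least 10 counts, at a median ratio of 0.455 in control and 0.563 in LPS, and macrophage markers were higher for 12 of 12, at 3.31 and 5.81. The part of these cells in the members' levels was not tested. With both libraries numbered 3 left out, the calls were those made with the replicate block: Nrtn (edgeR adjusted p = 0.00338), Gfra1 (9.49e-05) and Gfra3 (0.000252) lower, and Artn (0.0152), Gfra2 (0.000597) and Hand2 (0.00279) higher, where 43% of 15466 genes were called, 22.6% higher and 20.4% lower.

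**Figure D4:**
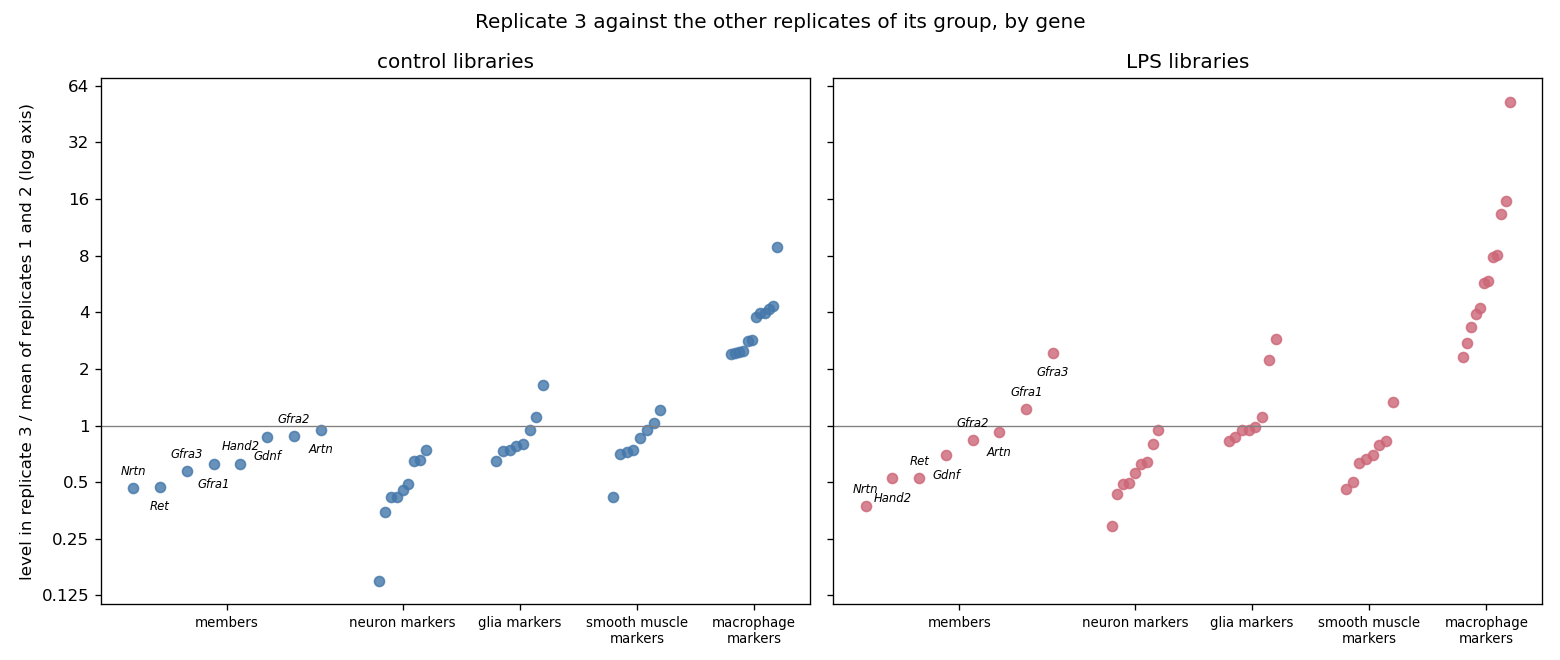
Ratio of replicate 3 to the mean of replicates 1 and 2 of the same group (y axis, log scale) for the members and for marker genes of neurons, glia, smooth muscle and macrophages, in control and LPS libraries. Neuronal markers lie below 1 and macrophage markers above 1 in both groups, Ret and Nrtn lie near the neuronal markers, and Gfra3 lies below 1 in control and above 1 in LPS.

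Of 8 further ligands, co-receptors and sorting partners around the receptor complex, 6 were tested and 1, Sdc3, was called, close to the 15.8% of all genes. Sdc3, which encodes a heparan sulfate proteoglycan that can bind GDNF, rose from 458 ± 30.7 to 926 ± 195 CPM (SD, n = 3), a log2 fold change of 1.01 (edgeR adjusted p = 0.0149). None fell in edgeR's test, with 2 lower at an unadjusted p under 0.05, 1 lower by DESeq2 and 0 by limma-voom. Of all genes, DESeq2 called 24.6% and limma-voom 14.3% in either direction, and those at an unadjusted p under 0.05 were not counted. Ncam1, an alternative GDNF receptor, was at 130.0 ± 4.73 and 96.7 ± 16.2 CPM (log2 fold change -0.43, edgeR adjusted p = 0.0850, and 0.0390 with the replicate block). Gas1, a distant relative of the GFRA genes, was at 65.3, 67.6 and 57.7 CPM in control and 30.0, 25.5 and 73.5 CPM in LPS libraries. It was high in LPS 3, like Gfra3.

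Of 20 RET adaptors and effectors, 18 were tested, 3 fell and none rose, so that 3 of 18 were called, close to the 15.8% of all genes. Grb10, an adaptor that binds active receptors, fell from 528 ± 133 to 247 ± 59.6 CPM (log2 fold change -1.10, edgeR adjusted p = 0.0434). Plcg1, the phospholipase that RET activates, fell by 0.54 in log2 units (edgeR adjusted p = 0.0150), while Pik3r1, a regulatory subunit of PI3 kinase, fell by 0.34 (edgeR adjusted p = 0.0278). At an unadjusted p under 0.05, 2 adaptors were higher and 4 lower by edgeR. DESeq2 called 2 higher and 3 lower and limma-voom 0 and 3, beside 24.6% and 14.3% of all genes in either direction. With the replicate block, 3 rose and 3 fell, where 30.3% of all genes were called, with Ptpn11, a phosphatase in the RAS pathway, among those higher (log2 fold change 0.24, edgeR adjusted p = 0.0351). Of 8 genes that follow RET signalling in development, edgeR called 0. DESeq2 called 1 in each direction and limma-voom 0, beside 24.6% and 14.3% of all genes. At an unadjusted p under 0.05, not counted over all genes, edgeR gave 1 higher and 2 lower. Spry2, an inhibitor of receptor tyrosine kinase signalling, was at 89.2 ± 33.5 and 77.2 ± 24.9 CPM, and Dusp6, an ERK phosphatase, at 64.1 ± 14.6 and 69.3 ± 26.1 CPM (SD, n = 3). Neither passed with the replicate block (edgeR adjusted p = 0.0981 and 0.699). Etv5, an ETS factor downstream of RET, was at 63.6, 68.0 and 100.01 CPM in control and 41.4, 33.5 and 61.4 CPM in LPS libraries, and passed with the replicate block (log2 fold change -0.78, edgeR adjusted p = 0.00874). Etv4, of the same list and named after its values were seen, had every LPS library above every control library. Its mean was 17.6 ± 0.88 CPM without and 24.7 ± 4.53 CPM with LPS (SD, n = 3). The log2 fold change was 0.49 (edgeR adjusted p = 0.0891), and 0.47 (edgeR adjusted p = 0.0633) with the replicate block. With both libraries numbered 3 left out, Etv4 was called higher (0.66, edgeR adjusted p = 0.00131) and Etv5 lower (-0.79, 0.00147). Cxcr4, a chemokine receptor named here after its values were seen, passed with the replicate block (log2 fold change -3.42, edgeR adjusted p = 0.00181). In the libraries numbered 3, Cxcr4 was at 3.41 and 6.10 times the mean of the other control and LPS libraries, beside medians of 3.31 and 5.81 for the macrophage markers, whose part in this value was not tested.

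Of 15 other enteric progenitor factors, 13 were tested. None rose by edgeR, DESeq2 or limma-voom, and 1 was higher at an unadjusted p under 0.05, which was not counted over all genes. Sox10, which marks enteric progenitors and glia, was at 88 ± 13.5 and 77.0 ± 1.16 CPM (edgeR adjusted p = 0.332), and Ngfr at 424 ± 55.0 and 361 ± 11.5 CPM (edgeR adjusted p = 0.227). Zeb2, a zinc-finger repressor, was at 232 ± 51.2 and 339 ± 65.7 CPM and passed with the replicate block (log2 fold change 0.55, edgeR adjusted p = 0.00507). Among 9 bHLH partners and inhibitors around HAND2, edgeR called 3 lower, beside 6.71% of all genes. DESeq2 also called 3 lower and limma-voom 2, beside 1673 and 921 of 15226 genes called lower by these tools. In edgeR's test 7 were lower at an unadjusted p under 0.05, a threshold for which all genes were not counted. None of the 9 was higher by any of these. Hand1, the closest relative of Hand2, fell from 32.7 ± 12.7 to 12.5 ± 1.88 CPM (log2 fold change -1.38, edgeR adjusted p = 0.0423), Id4 fell by 1.06 in log2 units (edgeR adjusted p = 0.0215) and Tcf12, an E-protein, fell by 0.29 (edgeR adjusted p = 0.0300). With the replicate block 7 of the 9 fell, beside 14.9% of all genes. Sox10 and Ngfr are also on the list of glial markers. Smooth muscle markers moved in the same direction as Hand1, Gfra1 and Gfra3, with 7 of 8 lower and a sum of 2349 to 2599 CPM in control and 683 to 982 CPM in LPS libraries. In control 3, 6 of the 8 were below the mean of control 1 and 2 (median ratio 0.798), as were Hand1, Gfra1 and Gfra3 (0.452, 0.623 and 0.572). In LPS 3, 7 of the 8 were below the mean of LPS 1 and 2 (median ratio 0.680), as was Hand1 (0.849). Gfra1 and Gfra3 were above that mean in LPS 3 (1.22 and 2.44). The 3 markers of interstitial cells of Cajal summed to 68.2 to 204 CPM in control and 50.5 to 87.0 CPM in LPS libraries. The 5 mesothelial markers summed to 63.2 to 95.4 CPM in control and 34.6 to 56.4 CPM in LPS libraries, with 1 called lower by edgeR and 4 with the replicate block, and the 4 endothelial markers to 10.9 to 17.7 and 8.05 to 20.7 CPM. The part of these cells in the results was not tested.

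**Figure D5:**
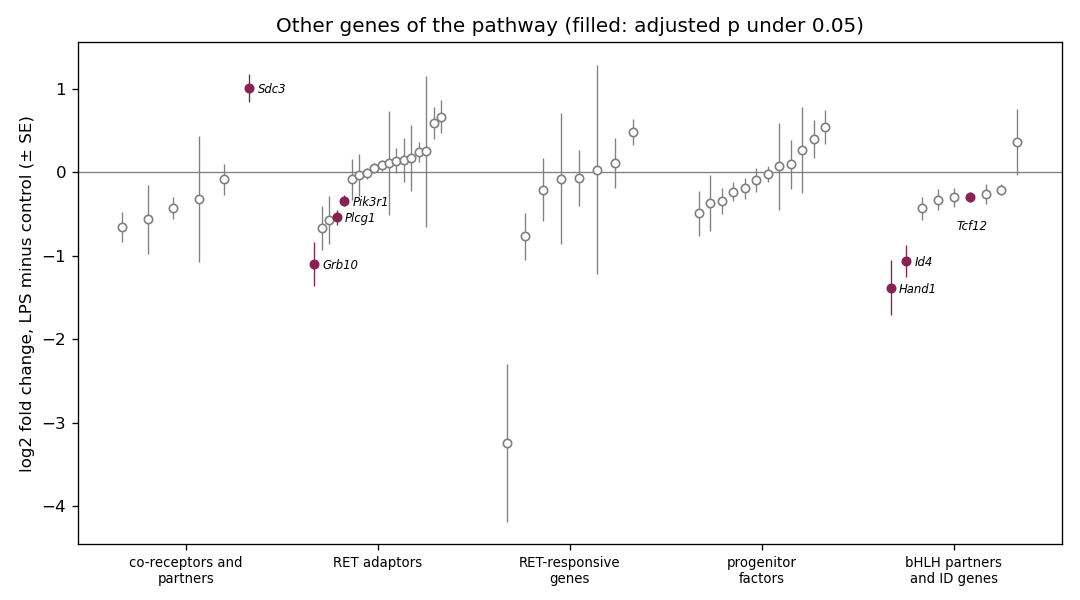
Log2 fold change of LPS over control (y axis, with lines for the standard error) for tested genes of each pathway list (x axis), from the fit on the groups alone, with called genes filled and named. Called genes are few: Sdc3 lies above 0, and Grb10, Plcg1, Pik3r1, Hand1, Id4 and Tcf12 lie below 0.

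The 7 list calls named here kept their direction when any single library was left out, with log2 fold changes of 0.83 to 1.11 for Sdc3, -1.28 to -0.91 for Grb10 and -1.66 to -1.19 for Hand1. All 7 fell short of the threshold without control 1 or without control 2 (edgeR adjusted p = 0.0578 to 0.156), and all but Sdc3 without LPS 1 or without LPS 2 (0.0541 to 0.148), the designs in which 3.15% to 5.42% of all genes were called. Pik3r1 and Tcf12 did so without control 3 (0.0616 and 0.0629), where 14.2% of all genes were called, and Grb10 and Hand1 without LPS 3 (0.0500 and 0.0746), where 21.7% were. Hand1 was also not called by limma-voom (adjusted p = 0.0886), nor were Pik3r1 and Tcf12 by edgeR with no low-count filter (0.0526 and 0.0671).

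The genes whose log2 CPM was most like each member's over the 6 libraries were taken from 11480 tested genes with a mean of at least 5 CPM. For Ret they were Camk2b (Pearson r = 0.999), Chgb (0.995) and Fhod3 (0.995), and for Hand2 they were Sh3d19 (0.9997), Hspa1b (0.998) and Cd200 (0.997). For Gfra1 they were Zfp68 (0.998), C1ql2 (0.996) and Col18a1 (0.996), for Gfra2 Ube2g2 (0.999), Hsd17b7 (0.996) and Rab3gap1 (0.996), and for Gfra3 Arpc1a (0.998), Insc (0.997) and Phc3 (0.996). For the ligands, Gdnf was most like Gstp1 (0.995), Nrtn most like Hacl1 (0.997) and Artn most like Scaf1 (0.996). With upper-quartile scaling and with library size alone, r fell to 0.695 and 0.398 for Artn with Scaf1 and to 0.680 and 0.356 for Gfra2 with Rab3gap1. Since the 6 libraries share treatment group and the low or high marker levels of replicate 3, the values are given as a description with no test. Among the members themselves, r was 0.963 for Gfra1 with Gfra3 and 0.949 for Artn with Gfra2.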

How the data were processed

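The authors deposited raw counts per gene for 3 control and 3 LPS libraries of EGCs, and 46005 of the 46603 gene identifiers were found in GENCODE M21 (GRCm38). Per the labels, libraries were made with a stranded poly-A kit, and the submitters' processing notes name cutadapt 1.15, Bowtie2 2.3.3.1, STAR 2.5.2b, SAMtools 1.5 and featureCounts 1.5.3. The counts were tested with edgeR 4.0.16 (limma 3.58.1, R 4.3.3): genes were kept by filterByExpr (minimum count 10, minimum total 15), libraries were scaled by TMM, and a quasi-likelihood model with group as the only term was fitted to all 6 libraries. P-values were adjusted by Benjamini-Hochberg over 15226 genes, and SE is the absolute log2 fold change divided by the root of F. The script was tested on simulated counts that held no effect of the replicate number. That test therefore cannot show which of the fits, with or without the replicate block, describes these libraries better. CPM values use the TMM-scaled library totals, with a floor of 3 counts (0.124 to 0.167 CPM).

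Same-numbered libraries deviated together (r = 0.513, 0.334 and 0.613 over genes for numbers 1, 2 and 3), although LPS 2 deviated more like control 1 (r = 0.419). This pairing comes from the data, since the labels do not say what a number stands for. DESeq2 1.42.0, limma-voom, other scalings and filters, the replicate block and leaving out each library were alternatives, and leaving out both libraries numbered 3 was added after seeing the data. Named genes were all members, the called genes of each pathway list with up to 3 of the most abundant others, cell type markers, and the 3 genes most like a member. The members and lists were chosen with earlier results of these data known. Promoters came from RefSeq for Gdnf, Nrtn and Artn. Results for some genes of the lists are not reported here.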

Additional observations from a re-analysis of the deposited data

How the results depend on the processing

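Gfra1, Gfra2 and Gfra3 kept their direction in all 15 alternatives, as did Nrtn, Artn and Hand2, and the replicate block changed no member's call other than those of Nrtn, Artn and Hand2. Counting members called higher (1 as reported), RLE scaling and DESeq2 gave 2, and the replicate block and the exclusion of both libraries numbered 3 gave 3. Among receptor partners, the number lower (0) was 1 with upper-quartile scaling, at least 10 counts in every library, DESeq2 or the replicate block, and 2 with library size alone or without both libraries numbered 3. Adaptors higher (0) were 2 with DESeq2 and 3 with the replicate block or without both libraries numbered 3, and adaptors lower (3) were 5 in the latter only. RET targets higher (0) were 1 with DESeq2 or without both libraries numbered 3, and those lower (0) were 1, 2 and 3 with DESeq2, the replicate block and that exclusion. Progenitor factors higher (0) were 1 with the replicate block and 2 without both libraries numbered 3, and those lower (1) were then 6. HAND2 partners lower (3) were 5 with upper-quartile scaling, 7 with library size alone, 7 with the replicate block and 6 without both libraries numbered 3, and 1 was then higher. Of all genes, 1022 were lower as reported, and 1589, 2054, 2273 and 3159 were lower in these alternatives, in the same order.

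When each library was left out in turn, members higher ranged from 0 to 2 and lower from 0 to 2. Receptor partners ranged from 0 to 1 higher and 0 to 2 lower, adaptors from 0 to 2 and 0 to 4, RET targets from 0 to 1 and 0 to 2, progenitor factors lower from 0 to 1, and HAND2 partners lower from 0 to 3. The Gdnf log2 fold change was -0.087 with upper-quartile scaling, -0.14 with library size alone, -0.0062 with no count filter, -0.0031 with limma-voom and -0.0032 with the replicate block, and -0.092 to 0.17 with each library left out. Ret ranged from -0.38 to 0.13. The median of all genes was -0.02 as reported, -0.12 with upper-quartile scaling and -0.18 with library size alone. Over all alternatives, 172 log2 fold changes kept their direction and side of the threshold, 48 lost a call, 9 gained one and 11 changed sign. The cause of these changes was not tested. The lowest member count was 25, for Nrtn in LPS 3.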
